A study of Bos taurus with 12 samples.

Results

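The miRNA bta-miR-202 was described across bovine granulosa cells from subordinate (SF) and dominant (DF) follicles. It was found by its mature name, which was 1 of 755 mature names in the count files. It stood on 1 of the 906 listed pairs of a mature miRNA and a precursor, and no other product of its precursor was listed. The files do not say which arm of the hairpin the name stands for. Small RNA had been sequenced in 12 libraries, 3 biological replicates of each follicle class on day 3 and on day 7 of the estrous cycle. The question of the study was whether miRNA levels in granulosa cells go with follicle recruitment, selection and dominance early in the luteal phase.

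All animals were estrous-synchronized Simmental heifers that received a prostaglandin analogue and a GnRH analogue, and different heifers were slaughtered on each day. Both follicle classes of a day were taken from the ovaries of that day's heifers, so SF and DF libraries of a day can share animals. Animal ages were not given in the sources used here. Follicles were sorted into SF and DF by diameter alone, with limits that were larger on day 7 than on day 3. The granulosa cells were the cells sedimented from follicular fluid that had been pooled by follicle size, so a library can hold the cells of several follicles. The labels number the replicates without tying them to animals, and the study's methods count no more DF on day 7 than libraries. The p values below therefore measure the spread between these libraries.

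The miRNA miR-202 is best known as a miRNA of the gonads. In the mouse it is expressed in Sertoli cells of the developing testis, where it acts downstream of SOX9, the transcription factor of testis determination. In the ovary it is found in granulosa cells, the somatic cells that surround the oocyte and make estradiol, and in medaka fish its loss impairs egg production. In the RefSeq annotation of the bovine assembly ARS-UCD2.0, the gene MIR202 lay between LOC101903854 and UTF1, both protein coding, and inside the span given for SORCS3, a protein-coding gene of a sorting receptor. Whether that position is intronic was not given there, and the reads had been mapped to another assembly, so no coordinates are used here.

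The level of bta-miR-202 was high in SF of both days and in DF of day 3, and low in DF of day 7. On day 3 it made up 1.01% ± 0.0757 of the miRNA reads in SF and 1.36% ± 0.148 in DF (SD, n = 3 each). Shares and library totals are over 1 precursor entry per mature name, and shares over all listed entries, given at the end, were lower. On day 7 its share was 0.801% ± 0.106 (SD, n = 3) in SF and 0.251% ± 0.102 (SD, n = 3) in DF. The same contrast is seen in rank, since bta-miR-202 was among the 19 most abundant miRNAs in every library except those of DF on day 7.

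In the SF libraries of day 3, bta-miR-202 had 2708, 2043 and 2323 reads in replicates 1, 2 and 3. These were 0.925%, 1.02% and 1.07% of the reads, with 95% Clopper-Pearson intervals of 0.891 to 0.961, 0.980 to 1.07 and 1.03 to 1.12%. After division by the size factors of the libraries, the normalized read counts were 2414, 2750.45 and 2838. The ranks among mature miRNAs were 19, 18 and 16, and the 3 libraries lay close together.

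The DF libraries of day 3 held the highest values of all, with 4165, 6008 and 3246 reads of bta-miR-202 in replicates 1, 2 and 3. These reads were 1.19%, 1.48% and 1.39% of the libraries, with intervals of 1.16 to 1.23, 1.45 to 1.52 and 1.34 to 1.44%. The normalized counts were 3129.8, 3673 and 3172, and the rank was 15 in each of the 3 libraries. No DF library of day 3 overlapped an SF library of that day.

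On day 7, the SF libraries had 2777, 2188 and 2302 reads, or 0.919%, 0.771% and 0.714% of their totals. The intervals were 0.885 to 0.954, 0.739 to 0.804 and 0.685 to 0.743%. The normalized counts of 2474, 2213 and 2243 overlapped those of SF on day 3, and the ranks were 18, 17 and 17.

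Only 880, 219 and 1084 reads of bta-miR-202 were counted in the DF libraries of day 7. Their shares were 0.286%, 0.137% and 0.332%, with intervals of 0.267 to 0.305, 0.119 to 0.156 and 0.313 to 0.353%. The normalized counts were 753, 364 and 976, and the ranks 46, 65 and 39. Every one of the 3 libraries lay below each of the other 9 libraries, and replicate 2 stood lowest of all. Replicate 2 was also the shallowest library of the series, with 160418 reads on mature miRNAs.

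**Figure D1:**
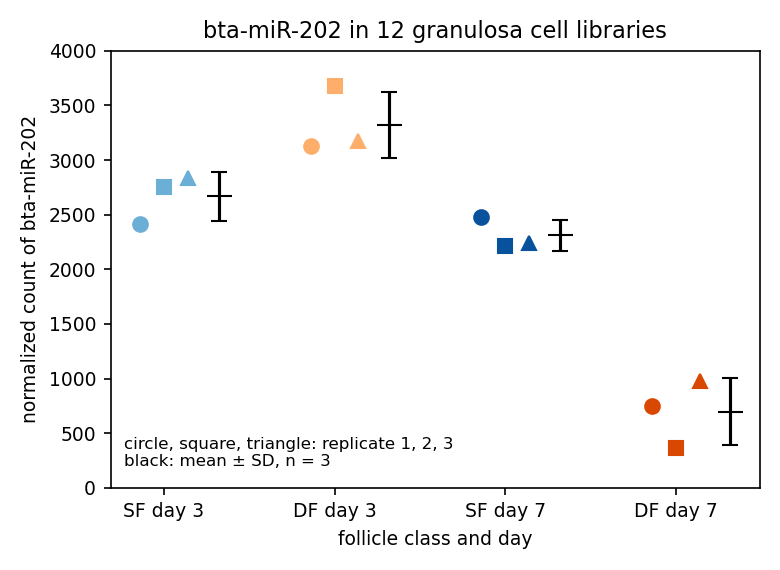
Normalized count of bta-miR-202 (y axis, reads divided by the library's size factor) in each of the 12 libraries, by follicle class and day (x axis), with the mean and SD of 3 libraries in black. The DF libraries of day 7 lie between 364 and 976, below all others, which lie between 2213 and 3673.

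The library totals ranged from 160418 to 405129 reads, and 289 to 344 mature miRNAs had at least 1 read in a library. The smallest share that 3 reads can show was 0.000741 to 0.00187%, far under any share of bta-miR-202. The counting error alone was 1.29 to 6.76% of the count of bta-miR-202. Intervals and limits cover counting error only, since PCR copies of one molecule were not told apart.

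The mean normalized count of bta-miR-202 was 3325 ± 302 in DF of day 3, 2667 ± 224 in SF of day 3, 2310.27 ± 143 in SF of day 7 and 697 ± 309 in DF of day 7 (SD, n = 3 each). An exact permutation test over the 4 groups, on log2(normalized count + 1) and all 369600 assignments of the 12 libraries, gave p = 0.000130, where 6.49e-05 is the smallest it can give. In this order, SF of day 3 and SF of day 7 were the only neighbours whose libraries overlapped.

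Its neighbours in abundance show how far down it moved. By mean share, bta-miR-202 was in place 14 in DF of day 3, between bta-miR-30d (1.71%) and bta-miR-30a-5p (1.32%). It was in place 17 in SF of day 3, between bta-miR-30e-5p (1.01%) and bta-miR-99a-5p (0.969%). In SF of day 7 it was again in place 17, between bta-miR-30a-5p (1.15%) and bta-miR-30e-5p (0.794%). The miR-30 family is abundant in many tissues. In DF of day 7 it was in place 53, between bta-miR-146a (0.281%), a miRNA induced by NF-kB in immune cells, and bta-miR-23a (0.249%), a miRNA of the cluster that also holds miR-27a and miR-24.

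**Figure D2:**
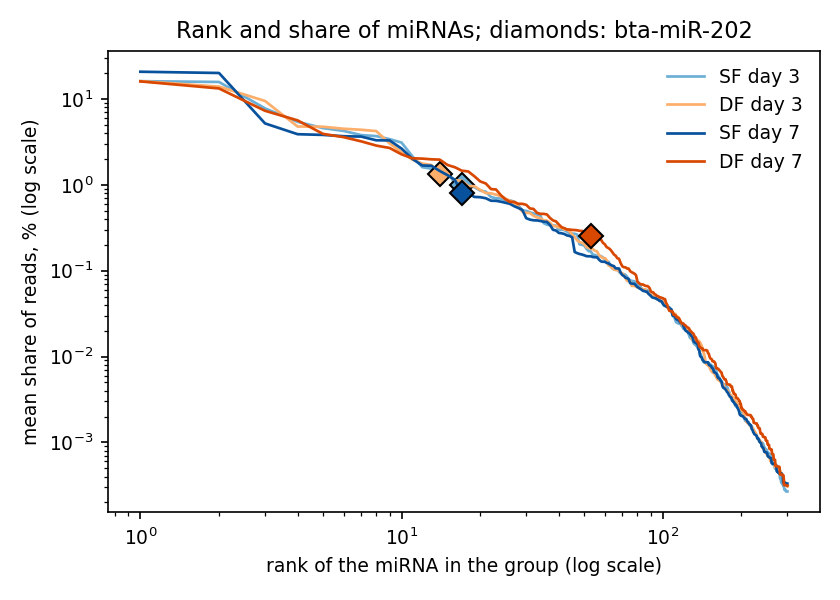
Mean share of reads in percent (y axis, log scale) against rank (x axis, log scale) for the miRNAs of each group, 1 line a group, with bta-miR-202 as a diamond. The diamonds of SF on both days and of DF on day 3 sit at ranks 14 to 17, and that of DF on day 7 at rank 53.

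The spread of bta-miR-202 among replicates was widest in DF of day 7 and narrowest in SF of day 7. Its coefficient of variation over normalized counts was 8.39% in SF and 9.09% in DF of day 3, and 6.19% in SF of day 7. The medians of the other miRNAs with a mean of at least 100 normalized counts were 9.78%, 10.6% and 14.8% in these groups, and 64 of 104, 58 of 101 and 94 of 107 of these miRNAs had a larger coefficient than bta-miR-202. In DF of day 7 the coefficient was 44.4% against a median of 19.0%, and 11 of 104 other miRNAs had a larger one. The reads of bta-miR-202 in that group spanned 4.95-fold between libraries.

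The difference between SF and DF on day 3 was small. The log2 fold change of SF over DF was -0.36 (SE 0.1246, 95% interval -0.62 to -0.11). Its adjusted p was 0.0649 by the quasi-likelihood test of edgeR, adjusted after Benjamini and Hochberg over 335 miRNAs. To be called differentially expressed, a miRNA needed a log2 fold change of 1 or more in either direction, p no higher than 0.05 and an FDR (false discovery rate) no higher than 10%. The change in bta-miR-202 passed the limits on p and FDR but not that on size, so it was not differentially expressed on day 3. The level in DF was 1.28 times that in SF, while 5.67% of all miRNAs tested were differentially expressed. The libraries did not overlap, for which an exact permutation test gave p = 0.1, the smallest it can give. The share of all miRNAs whose libraries did not overlap was not counted, here or in the comparisons below. The adjusted p was over the limit of 10% in 6 of 20 alternatives. It rose to 0.163 without replicate 1 of SF, to 0.101 without replicate 3 of SF, to 0.220 without replicate 2 of DF, to 0.163 with DESeq2, to 0.109 with libraries subsampled to the smallest and to 0.585 with all 12 libraries in a single edgeR fit.

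On day 7, bta-miR-202 was differentially expressed and higher in SF than in DF. The log2 fold change of SF over DF was 1.81 (SE 0.31, 95% interval 1.11 to 2.51), an adjusted p of 0.00155 in the same edgeR test, and each of 3 SF libraries lay above each of 3 DF libraries. This is a 3.51-fold difference, with an interval from 2.16 to 5.71. A call was frequent on this day, with 33.4% of 350 miRNAs differentially expressed, 53 higher and 64 lower in SF. By absolute log2 fold change, bta-miR-202 was number 110 of the 350. Without replicate 2 of DF the log2 fold change was 1.503 (adjusted p 0.00296, edgeR), so the difference was smaller but was still called.

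In DF, bta-miR-202 fell between day 3 and day 7. The log2 fold change of day 7 over day 3 was -2.28 (SE 0.29, 95% interval -2.90 to -1.66), with an adjusted p of 1.93e-05 by edgeR, and all 3 libraries of day 7 lay below all 3 of day 3. The level on day 3 was 4.85 times that on day 7, with an interval from 3.15 to 7.46. Of the 360 miRNAs tested in DF, 40.3% were differentially expressed, 88 higher and 57 lower on day 7. Without replicate 2 of day 7 the log2 fold change was -1.97 (adjusted p 5.39e-06, edgeR).

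No change of bta-miR-202 over time was detected in SF. The log2 fold change of day 7 over day 3 was -0.19 (SE 0.15, 95% interval -0.50 to 0.12), with an adjusted p of 0.740 by edgeR. The libraries of the 2 days overlapped, and the interval leaves room for a fall by 0.50 on the log2 scale. Only 0.593% of 337 miRNAs, or 2, were differentially expressed in SF.

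The change in DF differed from that in SF when the difference itself was tested. In a fit of all 12 libraries, the SF over DF log2 fold change of bta-miR-202 was 2.04 higher on day 7 than on day 3 (SE 0.35, 95% interval 1.296 to 2.79, adjusted p 0.000307 by edgeR). This interaction of follicle class and day passed all limits for bta-miR-202, as it did for 26.5% of the 378 miRNAs tested.

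The remaining pairs of groups differ in both follicle class and day, and were compared only to order the levels. In SF of day 7 the level of bta-miR-202 was below that in DF of day 3, with a log2 fold change of -0.56 (SE 0.12, adjusted p 0.0240 by edgeR), which was under the limit on size. Among all miRNAs of that pair, 6.12% were called. Without replicate 2 of DF on day 3 its adjusted p was 0.152, and without replicates 2 or 3 of SF on day 7 it was 0.108 and 0.134. It was 0.306 with all 12 libraries in a single edgeR fit. With the let-7 family reads, described below, as the library size, it was 0.116 by edgeR. In DF of day 7 the level was below that in SF of day 3 with a log2 fold change of -1.98 (SE 0.29, adjusted p 0.000222 by edgeR), which was differentially expressed, as were 34.1% of the miRNAs of that pair. These 6 pairwise comparisons reuse the same 12 libraries and are not independent of each other. With 3 libraries against 3, an exact permutation test of bta-miR-202 alone cannot go below p = 0.10.

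**Figure D3:**
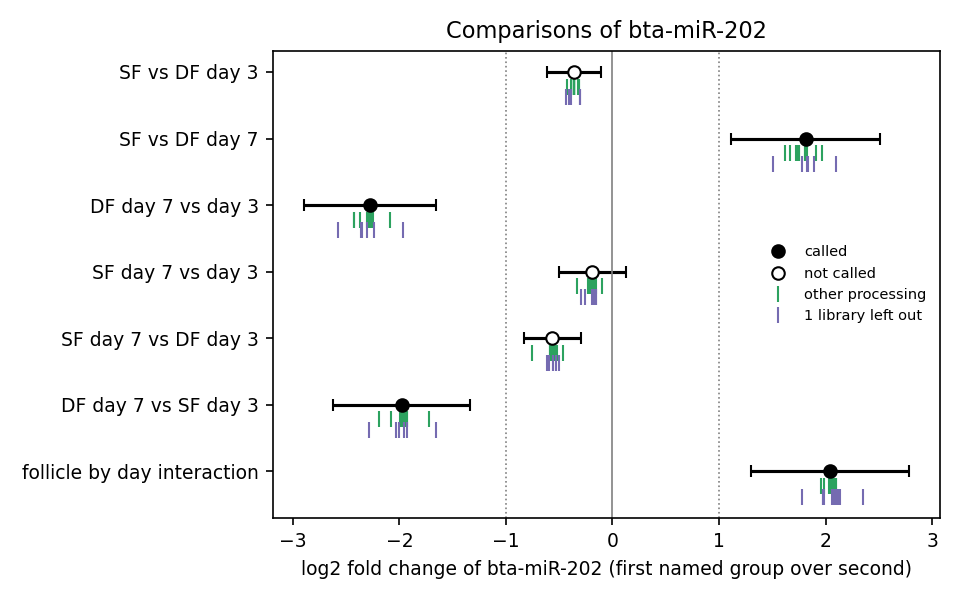
Log2 fold change of bta-miR-202 (x axis, first named group over second, with 95% interval) for the 6 pairs of groups and the interaction of follicle class and day (y axis), filled where differentially expressed. Green ticks are other ways of processing and purple ticks leave out 1 library. Dotted lines mark the limit of 1 on size, and the 4 filled points, 1.81, -2.28, -1.98 and 2.04, stay beyond it under each tick.

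Because the whole of an RNA pool was sequenced, fewer cells of a type and less RNA per cell cannot be told apart. The count files hold miRNAs only, so the labelled cell type could not be checked against the mRNA markers of granulosa cells, such as the FSH receptor. It was described instead by miRNA lists for other cell types. The let-7 family, abundant and widely expressed, served as a reference: none of its 9 members was differentially expressed by edgeR or by DESeq2 in the 4 comparisons within a day or within a follicle class. At an unadjusted p under 0.05 in edgeR there were 2 members in SF against DF on day 3, 1 in DF between the days and none in the other comparisons. Its summed normalized count was 40170.3 to 42879 in SF and 39184 to 40206 in DF of day 3, and 33599 to 43877 in SF and 32909 to 37883 in DF of day 7. With the let-7 reads as the library size, the log2 fold change of bta-miR-202 between SF and DF on day 7 was 1.62, and that in DF between the days was -2.08.

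Leukocyte miRNAs moved opposite to bta-miR-202. The list holds miR-142, which is specific to blood cells, miR-150 of mature lymphocytes, miR-223 of myeloid cells, and miR-155, miR-146a and miR-146b, which are induced on immune activation and also occur in other cells. The summed normalized count of its 7 members was 462 to 742 in SF and 382 to 398 in DF of day 3, 779 to 2039 in SF of day 7, and 4806 to 20559 in DF of day 7. In DF, 7 of 7 were differentially expressed and higher on day 7, beside 40.3% of all miRNAs called, with a median log2 fold change of 4.87 beside 0.05. The median was 4.20 with bta-miR-142-3p, listed at 0 in DF of day 3, set to the bound that 3 reads per library allow. Also near that bound was bta-miR-223, with 0 to 0.977 normalized counts in DF of day 3 and 4.50 to 8.32 in DF of day 7. It was the member not called between SF and DF on day 7. Between SF and DF on day 7, 6 of 7 were differentially expressed and lower in SF, beside 33.4% of all miRNAs called, with a median of -3.01 beside -0.05. Without replicate 2 of DF, 4 of 7 were called, beside 34% of the 341 miRNAs tested in that fit, and the median was -2.31.

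The DF libraries of day 7 stood in opposite order by these measures. Replicate 2, with the lowest normalized count of bta-miR-202 (364), had the highest leukocyte sum (20559). Replicate 3, with the highest count of bta-miR-202 (976), had the lowest leukocyte sum (4806), and replicate 1 lay between them on both (753 and 9531). This order was not particular to the leukocyte list. In replicates 2, 1 and 3, the erythrocyte list described below summed to 2322, 1296 and 808, and the gonad list to 2578, 1608 and 1262. The summed theca and stroma and hormone-responsive lists ran in the order of bta-miR-202, and the endothelial and let-7 lists in neither order. In DF of day 7 the theca and stroma sum was carried largely by bta-miR-143 (mean 9997 normalized counts). The hormone-responsive sum was carried largely by bta-miR-21-5p (mean 36696). The defining leukocyte marker bta-miR-142-3p was at 0 in all 6 libraries of day 3 and at 1.01 or less in SF of day 7. In DF of day 7 it had 0.8999 to 6.65 normalized counts, near the floor of 3 reads per library. Against that floor in DF of day 3, the level in DF of day 7 was at least 1.75-fold higher. The partner bta-miR-142-5p reached 643 to 6845 in DF of day 7, against 92.8 to 128 in DF of day 3. The part of leukocyte RNA in the low level of bta-miR-202 was not tested.

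Theca and stroma miRNAs were also higher in DF of day 7. The list holds miR-143 and miR-145 of smooth muscle and fibroblasts, and the miR-199 and miR-214 family of mesenchyme, and bta-miR-199a-3p and bta-miR-199c had nearly the same counts, so they may share reads. The summed normalized count of the 7 members was 4305 to 5606 in SF and 2578 to 4365 in DF of day 3, 3406 to 5578 in SF of day 7, and 9809 to 17984 in DF of day 7. In DF, 7 of 7 were differentially expressed and higher on day 7, beside 40.3% of all miRNAs called, with a median log2 fold change of 2.48 beside 0.05. On day 7, 6 of 7 were called lower in SF than in DF, beside 33.4% of all miRNAs, with a median of -2.38 beside -0.05. Here the order within DF of day 7 was the other way, since replicate 2 had the lowest sum and replicate 3 the highest. No member was at 0 in all libraries of a group, and the part of these cells in the result was not tested.

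Erythrocyte and endothelial miRNAs were checked in the same way. The 3 erythrocyte miRNAs summed to 315 to 1642 and 737 to 1087 normalized counts in SF and DF of day 3, and to 438 to 515 and 808 to 2322 in SF and DF of day 7. Both that were tested on day 7, bta-miR-486 and bta-miR-451, were differentially expressed and lower in SF than in DF (log2 fold changes -1.56 and -1.76). On that day 33.4% of all miRNAs were called, and bta-miR-144 was at 0 in SF. In DF between the days, 0 of 3 erythrocyte miRNAs were called, beside 40.3% of all miRNAs. Their log2 fold changes there were 0.65 for bta-miR-486, 0.84 for bta-miR-451 and -1.26 for bta-miR-144. The 2 endothelial miRNAs, both arms of miR-126, summed to 103 to 131 and 61.6 to 101 in SF and DF of day 3, and to 90.9 to 221 and 129.99 to 160.2 in SF and DF of day 7. Of them, bta-miR-126-3p was called in DF, higher on day 7 with a log2 fold change of 1.05, beside 40.3% of all miRNAs called. Neither arm was called between SF and DF on day 7 (log2 fold changes 0.27 for bta-miR-126-5p and -0.25 for bta-miR-126-3p).

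**Figure D4:**
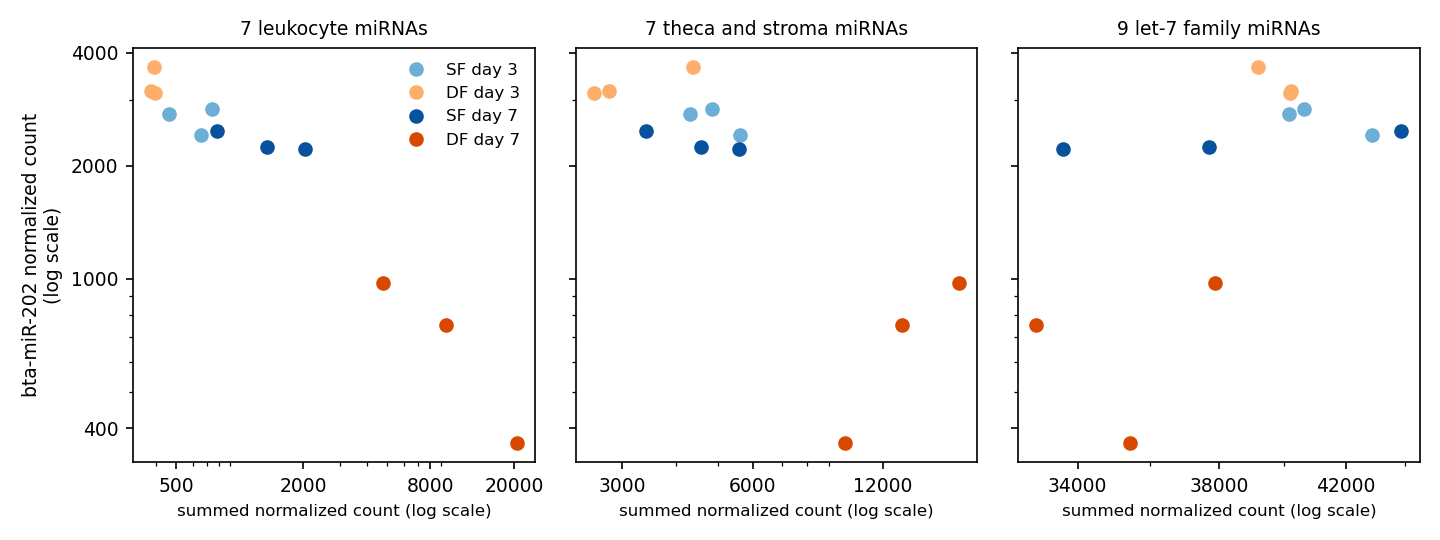
Normalized count of bta-miR-202 (y axis, log scale) against the summed normalized count of 7 leukocyte, 7 theca and stroma and 9 let-7 family miRNAs (x axes, log scale) in the 12 libraries. The DF libraries of day 7 lie at 4806 to 20559 for leukocyte miRNAs, above all others. For the let-7 family they lie at 32909 to 37883, where they overlap SF of day 7 and are below every library of day 3.

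Other miRNAs known from gonads or germ cells were also listed. Of the 14 listed, 9 names were in the files, and their summed normalized count was 279 to 335 in SF and 366 to 549 in DF of day 3, 381 to 447 in SF of day 7 and 1262 to 2578 in DF of day 7. In DF, 5 of 8 tested were differentially expressed and all 5 were higher on day 7, beside 40.3% called in either direction over all miRNAs. The list's median log2 fold change there was 3.16 beside 0.05 over all, or 2.07 with members at 0 in a group set to the bound of 3 reads per library. Between SF and DF on day 7, 4 of 8 were called, 1 higher and 3 lower in SF, with a median of -1.28 beside -0.05, while DESeq2 called 2. The share called over all miRNAs was 33.4% by edgeR, and DESeq2 called 104 of 350. On day 3, 2 of 5 were called higher and 1 of 5 lower in SF, beside 5.67% called in either direction over all miRNAs. The median there was 0.92 beside -0.04 over all miRNAs.

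The sum was carried by bta-miR-204, a miRNA of retina and other epithelia that is also found in gonads, with 274 ± 48.0 and 454 ± 86.1 normalized counts in SF and DF of day 3, 388 ± 40.0 in SF of day 7 and 1632 ± 686 in DF of day 7 (SD, n = 3). Its log2 fold change in DF was 1.84 (SE 0.29, adjusted p 0.000149, edgeR). A second member, bta-miR-184, had 110 to 175 normalized counts in DF of day 7 and none in SF of day 7, at least 46.8-fold higher against a floor of 3 reads per library. The miR-449 members, known from spermatocytes and ciliated epithelia, were scarce. The group means of bta-miR-449a were 22.4 and 1.76 in SF and DF of day 3 and 21.1 and 26.1 in SF and DF of day 7, and those of bta-miR-449c were 6.86 and 0.780, then 5.16 and 13.2. The 1 member called higher in SF on day 7, bta-miR-383, a miRNA of testis and granulosa cells, had 1.95 to 2.67 normalized counts in SF and none in DF, both at or under the floor.

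Granulosa miRNAs known to respond to gonadotropins or to act on steroid output were called in both directions. Of 11 tested in DF, 3 were called higher and 3 lower on day 7, beside 40.3% called in either direction over all miRNAs, with a median log2 fold change of 0.88 beside 0.05. On day 7, 2 of 11 were called higher and 2 lower in SF than in DF, close to the 33.4% over all miRNAs, with a median of -0.01 beside -0.05. The 3 higher were bta-miR-132, which LH induces, and both arms of miR-21, which the LH surge induces and which protects granulosa cells from death. The normalized count of bta-miR-21-5p was 737 ± 72.4 in DF of day 3 and 36696 ± 6726 in DF of day 7, against 2491 ± 63.0 and 4924 ± 2803 in SF of the same days. In the direction of bta-miR-202 were bta-miR-224, a TGF-beta-responsive miRNA of granulosa cells, bta-miR-423-3p and bta-miR-424-5p. The log2 fold changes of bta-miR-224 and bta-miR-423-3p in DF were -3.48 and -1.11, and both were called on day 7 too, at 3.55 and 1.37 for SF over DF. For bta-miR-424-5p the change in DF was -1.01, while the value on day 7 was -0.01. Among abundant members, bta-miR-423-5p and bta-miR-378 were not called, with log2 fold changes of -0.56 and 0.88 in DF.

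The lists were also read in SF between the days and in SF against DF on day 3. In SF, where 0.593% of all miRNAs were called, edgeR called 1 member of all these lists, bta-miR-155, higher on day 7 with a log2 fold change of 1.89. At an unadjusted p under 0.05 there were 5 of 6 leukocyte and 4 of 11 hormone-responsive miRNAs, beside 37 of 337 over all. DESeq2 called 1 leukocyte and 2 hormone-responsive miRNAs, beside 5 of 337 over all. On day 3, 3 of 11 hormone-responsive, 1 of 6 leukocyte and 1 of 7 theca and stroma miRNAs were called, all higher in SF, beside 5.67% of all miRNAs. At an unadjusted p under 0.05 there were 6 of 7 theca and stroma miRNAs on day 3, beside 83 of 335 over all, and the median log2 fold change of that list was 0.59 beside -0.04. Among them, bta-miR-143 had 3581 to 4757 normalized counts in SF and 2112 to 3793 in DF, with a log2 fold change of 0.53 (adjusted p 0.0239, edgeR). For bta-miR-199a-5p the log2 fold change was 0.94 (adjusted p 0.000377, edgeR), also under the limit on size. The level of bta-miR-202 was lower in SF on that day, and the part of these cells in it was not tested. The erythrocyte and endothelial lists had no call on day 3 by edgeR or DESeq2, and 1 endothelial miRNA had an unadjusted p under 0.05. On that day DESeq2 called 2 hormone-responsive miRNAs and no theca and stroma miRNA, beside 11 of 335 over all.

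The miRNAs whose levels ran most like bta-miR-202 over the 12 libraries were then listed. Likeness was Pearson's r of log2(normalized count + 1) among 178 miRNAs with a mean of at least 10 normalized counts. These values are a description, since all miRNAs of a library share its depth and its scaling, and the 3 DF libraries of day 7 stand apart for many miRNAs. The r was above 0.9 for 24 miRNAs and below -0.9 for 21, and its median was -0.02.

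Of the 8 most alike, 3 come from a single place in the genome. In the ARS-UCD2.0 annotation, MIR224 has MIR452 and MIR3431 as its neighbouring miRNA genes on either side. Their r values were 0.948 for bta-miR-224, 0.952 for bta-miR-452 and 0.979 for bta-miR-3431. Levels of bta-miR-224 were 163 ± 25.2 and 127 ± 22.9 in SF and DF of day 3, 127 ± 39.3 in SF of day 7 and 11.02 ± 4.32 in DF of day 7 (SD, n = 3). Those of bta-miR-3431 were 63.1 ± 10.9, 80.9 ± 11.3, 70.3 ± 24.7 and 5.85 ± 4.12 in the same order, and those of bta-miR-452 were 15.5 ± 5.89, 12.9 ± 1.17, 12.1 ± 3.93 and 1.17 ± 1.01. All 3 were low in DF of day 7 only. Their likeness to bta-miR-202 rested on that group, since r over the other 9 libraries was 0.00669 for bta-miR-224, 0.0640 for bta-miR-452 and 0.473 for bta-miR-3431.

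For others of the 8 the likeness was also present among the 9 libraries outside DF of day 7. Among the 8 it was highest there for bta-miR-148b, of the miR-148 and miR-152 family that targets the DNA methyltransferase DNMT1, with r = 0.939 over 9 and 0.972 over 12 libraries. Its normalized counts were 886 ± 94.5 and 1155 ± 58.2 in SF and DF of day 3, 783 ± 159 in SF of day 7 and 413 ± 115 in DF of day 7, the order of groups seen for bta-miR-202. The next were bta-miR-1296 (0.781 over 9 and 0.985 over 12 libraries) and bta-miR-574 (0.712 and 0.978). The levels of bta-miR-1296 were low, with means of 46.7, 53.9, 42.2 and 11.1 in the 4 groups in that order, and those of bta-miR-574 were 448, 519.9, 440 and 129. In both, DF of day 3 had the highest mean and DF of day 7 the lowest, as for bta-miR-202.

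The other 2 of the 8 were bta-miR-195, of the miR-15 and miR-16 family that restrains the cell cycle, and bta-miR-1343-3p. The r of bta-miR-195 was 0.969 over 12 libraries and 0.191 over 9, and its mean was 797, 812 and 803 normalized counts in the first 3 groups and 266 in DF of day 7. The r of bta-miR-1343-3p was 0.964 over 12 and 0.498 over 9 libraries, and its means were 274 and 247 in SF and DF of day 3, and 168 and 26.1 in SF and DF of day 7.

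**Figure D5:**
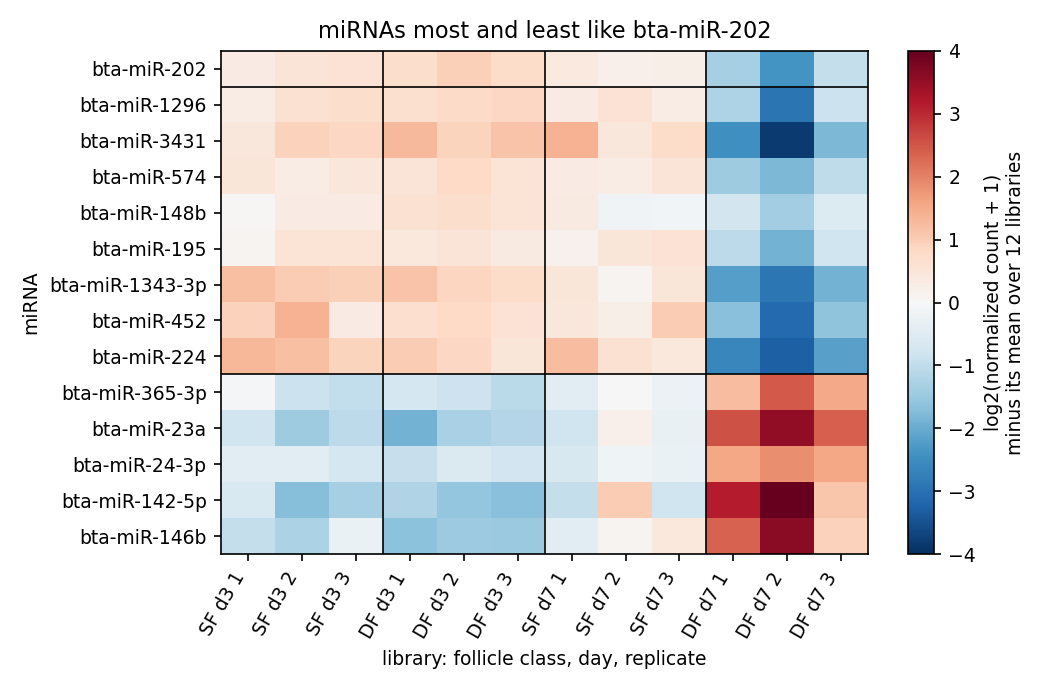
Level of bta-miR-202, of the 8 miRNAs most like it and of the 5 least like it (y axis) in each of the 12 libraries (x axis), as log2(normalized count + 1) minus the mean of the row over the libraries (colour). The 8 are lowest and the 5 highest in the DF libraries of day 7.

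The 5 least alike rose where bta-miR-202 fell. Lowest was bta-miR-365-3p with r = -0.972, followed by bta-miR-23a (-0.970), bta-miR-24-3p (-0.959), bta-miR-142-5p (-0.958) and bta-miR-146b (-0.958). MIR23A and MIR24-2 both neighbour MIR27A in the ARS-UCD2.0 annotation, though bta-miR-24-3p can come from a further gene, and bta-miR-142-5p and bta-miR-146b are on the leukocyte list. In normalized counts, bta-miR-23a had 42.0 ± 9.28 and 32.6 ± 8.27 in SF and DF of day 3, 74.4 ± 25.3 in SF of day 7 and 678 ± 316 in DF of day 7. The means of bta-miR-24-3p were 378, 326, 430 and 1736 in the same order. Outside DF of day 7 the r of these 5 with bta-miR-202 lay between -0.808 and -0.709.

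All 13 of these miRNAs were called in SF against DF on day 7 and in DF between the days, and none of them between SF and DF on day 3 or between the days in SF. They were chosen on the same libraries, so this count is no result of its own. The change of bta-miR-202 in DF, -2.28, lay within the range of the 8 most alike, from -3.66 for bta-miR-3431 to -1.51 for bta-miR-148b.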

How the data were processed

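Reads on known bovine miRNAs were analysed in 12 small RNA libraries. The authors called bases with CASAVA 1.8.0, checked quality with FastQC, trimmed reads with cutadapt, aligned them to UMD 3.1 and counted miRBase miRNAs with miRDeep2, and deposited raw read counts for each mature and precursor pair without normalization. For 73 names with several precursors, the entry with the highest total was used. Groups and replicate numbers came from the labels. The member, the lists and the tests were chosen with earlier results of these data known.

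Tests used edgeR 4.0.16 in R 4.3.3 (quasi-likelihood, legacy option, median-of-ratios factors, Benjamini-Hochberg adjustment over all miRNAs tested), on the libraries of the groups compared and on miRNAs detected in a group compared (1 or more reads in 2 or more of its 3 replicates). Standard errors were the log2 fold change divided by the square root of F. Normalized counts used factors over all 12 libraries, and the pseudocount was 1. The study's tool, DESeq2 1.42.0, was an alternative. The code was tested on simulated counts. Named miRNAs were bta-miR-202, the 8 most and 5 least like it and its neighbours in share. Up to 4 leading members of each list were also named, beside members that make up a count. Added after their values were seen were bta-miR-142-3p, bta-miR-144, bta-miR-223, bta-miR-383, bta-miR-424-5p and bta-miR-132.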

Additional observations from a re-analysis of the deposited data

Results flagged for a closer look

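One result of bta-miR-202 was flagged because the effect of follicle class differed between the days. This was not particular to bta-miR-202, since the interaction was called for 26.5% of the 378 miRNAs tested. By the absolute size of the interaction, bta-miR-202 was number 134 of the 378. The log2 fold change of SF over DF was -0.36 on day 3 and 1.81 on day 7, and the difference between them, tested as an interaction over all 12 libraries with edgeR, was 2.04 (SE 0.35, adjusted p 0.000307). All 3 SF libraries lay below all 3 DF libraries on day 3 and above them on day 7, and the share of all miRNAs that did so was not counted. The groups have 3 libraries each and were not tested for single outlying samples.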

How the results depend on the processing

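For bta-miR-202, direction and call were the same under all 20 alternatives of each pairwise comparison and all 25 of the interaction, which covered scaling, tool, filters, precursor entries, FDR limit, prior count, depth and leaving out each library. The log2 fold change ranged from -0.44 to -0.30 for SF over DF on day 3, 1.503 to 2.10 on day 7, -2.57 to -1.97 in DF over time, -0.33 to -0.10 in SF over time and 1.78 to 2.35 for the interaction. Adjusted p values ranged from 0.0452 to 0.585, 1.38e-09 to 0.0108, 6.20e-21 to 0.000776, 0.350 to 0.949 and 3.27e-11 to 0.00166. On day 3 it was over the FDR limit of 10% in 6 of 20, and for SF of day 7 against DF of day 3 in 5 of 20.

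With the share taken over all listed entries, or over sums of precursors, the mean share was 0.746% and 1.01% in SF and DF of day 3 and 0.591% and 0.186% on day 7. Of the 8 most alike miRNAs, 3 were shared with Spearman's rho, 4 without the 2 libraries farthest from the median (DF day 7 replicates 1 and 2) and 2 over the 9 libraries other than DF of day 7.

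As a replicate block, the replicate number gave 1.91 for SF over DF on day 7, -2.37 in DF and 2.09 for the interaction, and changed no call of bta-miR-202. Deviations of same-numbered libraries correlated at -0.124 to 0.141 over 185 miRNAs, and the numbers were not taken as pairs in the main fits. Such correlations cannot show whether libraries share animals, since the labels do not name the animals.

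Counts of called miRNAs moved most where few were called. The 19 of day 3 became 11 with DESeq2, 12 at 10 or more reads, 8 with all libraries in 1 fit and 10 without SF replicate 1. The 145 in DF became 92 at 10 or more reads. The 2 in SF ranged from 0 to 20, with 5 by DESeq2, 12 without a filter, 10 with entries as listed, 7 with the replicate block and 20 without SF day 7 replicate 1. The 21 for SF of day 7 against DF of day 3 became 13 at an FDR of 5% and 9 to 34 with 1 library left out. The let-7 library size, edgeR without the legacy option, the 9 libraries and the lists without DF day 7 replicate 2 were chosen after seeing the data.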
